A study of Mus musculus with 8 samples.

Results

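Arginase 1 and the genes used to mark alternative activation of macrophages were followed in injured sciatic nerve of mice labelled c-Jun KO and of control mice. The set holds 9 genes of 18193 annotated on the array: the arginases Arg1 and Arg2, the inducible nitric oxide synthase Nos2, ornithine decarboxylase Odc1, the markers Mrc1, Retnla and Cd163, the interleukin 4 receptor chain Il4ra, and the cytokine Il10. They were taken by name, through the 14 probe sets of 45101 that the platform annotation gives to them. The list was drawn up with earlier results of these arrays known and is headed by Arg1, which was selected on its differences between these 4 groups, so its values are given as a description with no test.

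The comparison is of injured and intact nerve of control mice and of mice labelled KO for c-Jun, a transcription factor. Adult mice had the sciatic nerve of 1 side cut at the sciatic notch, and 7 days later a 10 mm piece distal to the cut and the contralateral nerve, left intact, were taken. The 4 groups were c-Jun KO (mutant) cut, mutant uncut, control (labelled WT) cut and control uncut nerve, with 2 Affymetrix arrays each. Each array held RNA of a pool of 4 or 6 animals, 2 independent pools a group, and p-values measure the spread between such pools. All mice of the series were operated on, so uncut nerve is that of an injured animal. The promoter or cell type in which the gene was removed was not given in the sources used here, nor the animals' ages beyond adult. The labels call the tissue Schwann cell, but the piece is whole nerve, and every value below is of a mixture of cells.

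Arginase splits arginine into urea and ornithine, and ornithine is the raw material for polyamines, through ornithine decarboxylase, and for proline. Nitric oxide synthase competes for the same arginine. In mouse macrophages interleukin 4 and interleukin 13 act through receptors that contain Il4ra and the factor STAT6 to raise Arg1, Retnla and Mrc1, a state called alternative activation, while inflammatory signals raise Nos2. Arg1 is also abundant in liver, where it ends the urea cycle, and is made by some neurons and other cells, so its RNA does not by itself name a macrophage.

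Arg1 was higher in cut than in uncut nerve of both genotypes, by more in control than in mutant nerve. Its probe set read 6.61 and 6.66 in mutant cut nerve, 5.88 and 5.65 in mutant uncut nerve, 8.35 and 7.98 in control cut nerve, and 4.82 and 5.36 in control uncut nerve (log2 expression, 1 value per array). No array of 1 group overlapped with an array of another: control cut nerve was highest, then mutant cut, mutant uncut and control uncut nerve. The means were 6.64 ± 0.03 in mutant cut, 5.77 ± 0.17 in mutant uncut, 8.17 ± 0.26 in control cut and 5.09 ± 0.38 in control uncut nerve (SD, n = 2 each). Cut nerve differed from uncut nerve by 0.87 on the log2 scale in mutant mice, or 1.83-fold, and by 3.08 in control mice, or 8.45-fold. Of 12093 genes tested 889 had a higher difference than Arg1 in mutant nerve and 73 in control nerve. Arg1 was picked on such differences, so these ranks are a description and no test.

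Between genotypes, mutant cut nerve was lower in Arg1 than control cut nerve by a log2 difference of -1.53, so its level was 0.347 of that in control cut nerve. Mutant uncut nerve was above control uncut nerve by 0.68. The injury change in mutant nerve minus that in control nerve was -2.21. Of all genes tested 23 lay lower than Arg1 in the difference between the cut nerves and 19 in the difference of injury changes. These ranks too follow in part from how Arg1 was picked and measure no support. Leaving out each array in turn gave -1.71 to -1.35 for the cut nerves and -2.48 to -1.94 for the difference of injury changes.

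Arg1 was dim on most arrays. Its signal exceeded the array median (6.59 to 6.65) on 3 of 8 arrays, all of cut nerve, and below the 25th percentile (4.95 to 5.01) on 1, a control uncut array. It therefore entered the fit only because it is higher in cut nerve, and a filter on the mean over all arrays left it out. The deposited values carry no detection calls and compress differences of dim probe sets, and a fold between such levels may be understated.

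**Figure D1:**
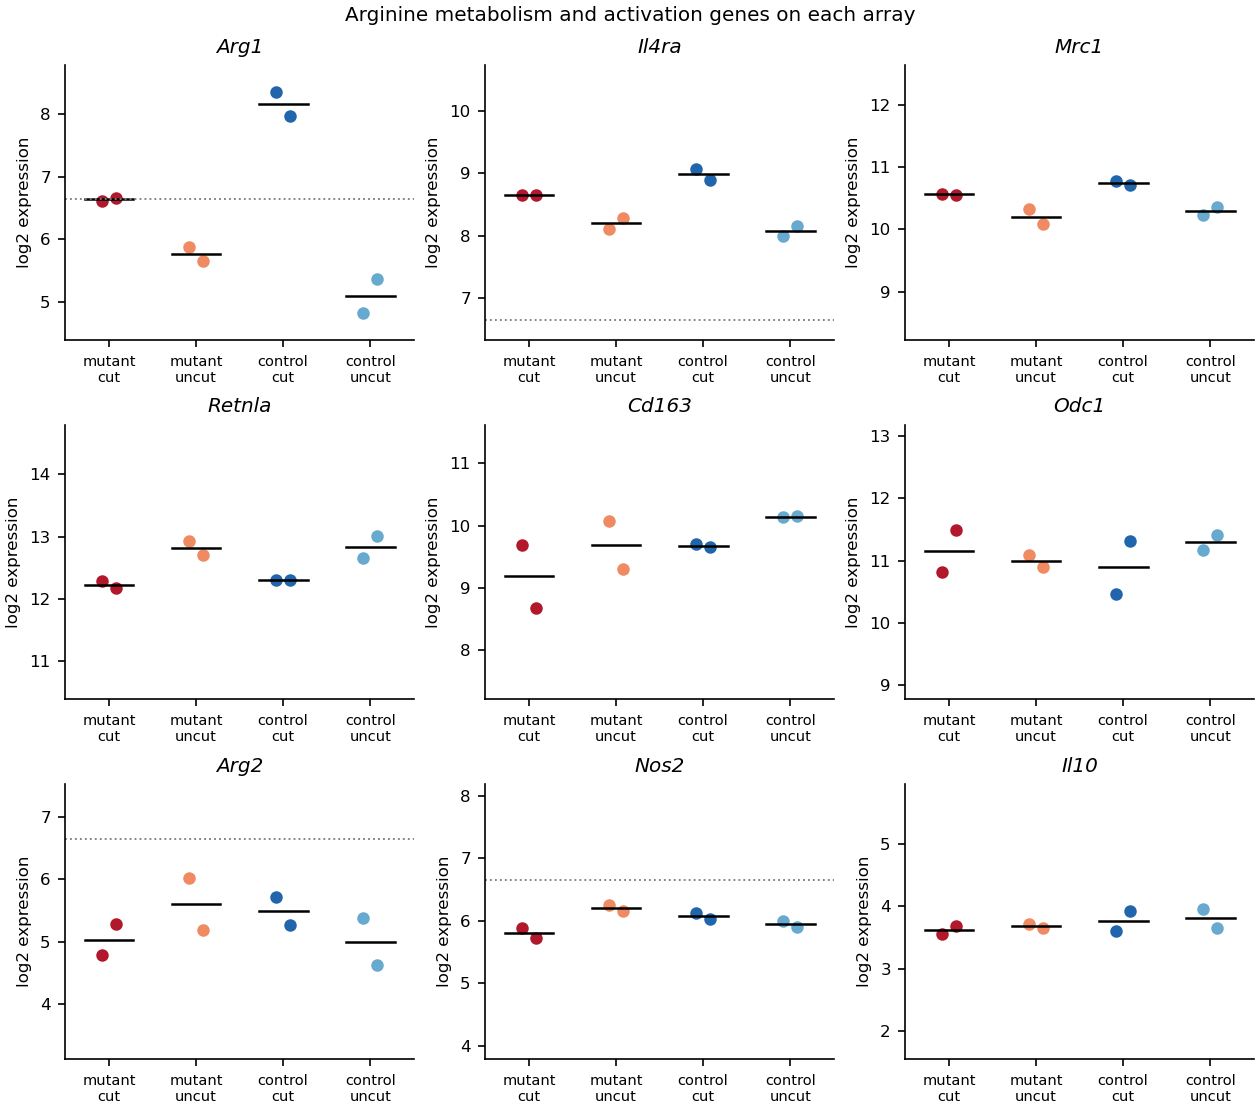
Each panel shows the log2 expression of 1 gene on the 8 arrays (brightest probe set of the gene), with 2 points per group and a black line at the group mean; every panel spans the same log2 range, and the dotted line is the highest array median (6.65) where it falls in the range. Arg1 separates the 4 groups, at 6.64, 5.77, 8.17 and 5.09 on average from left to right, while the other genes stay within a narrower range.

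Macrophage RNA in the segment was read beside Arg1, since macrophages enter cut nerve. Of 14 measured macrophage and monocyte markers 12 rose after the cut in mutant nerve and 13 in control nerve, with medians of 1.67 and 1.76. Of all genes 18.1% were called higher in mutant nerve and 22.8% in control nerve. Itgam, counted among the markers that rose, exceeded the array median on 4 of 8 arrays, all of cut nerve, and entered the fit only through them. Their summed linear signal was 48864 to 57244 in mutant cut nerve, 13348 to 16854 in mutant uncut nerve, 53241 to 55895 in control cut nerve and 13077 to 16175 in control uncut nerve. The sums overlapped between mutant and control in both cut and uncut nerve. Between the cut nerves 0 of the 14 were called by limma (1 had an unadjusted p under 0.05), and their median difference was -0.03. They ranged from -0.31 for Cd14 to 0.08 for Mpeg1, with Cd68, a lysosomal protein of macrophages, at 0.06 and Adgre1, a surface receptor of mouse macrophages, at -0.01. Cd14, a receptor for bacterial lipopolysaccharide, was the marker of unadjusted p under 0.05 (limma adjusted p = 0.55). It read 8.85 and 8.81 in mutant cut nerve, 8.87 and 9.03 in mutant uncut nerve, 9.29 and 8.98 in control cut nerve, and 8.48 and 8.44 in control uncut nerve, so its groups had the signs of Arg1 between genotypes. Its injury difference was -0.12 in mutant nerve (adjusted p = 0.50) and 0.67 in control nerve (adjusted p = 0.0043), and the difference of the changes was -0.79 (adjusted p = 0.22). In whole tissue, fewer cells of a type and less RNA per cell cannot be told apart.

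**Figure D2:**
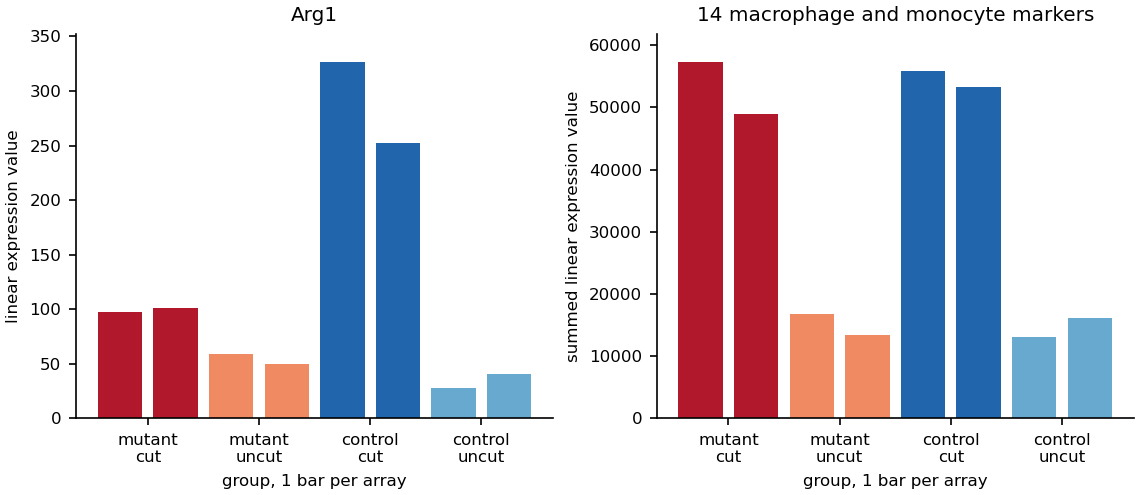
Linear expression value of Arg1 (left) and the summed linear value of 14 macrophage and monocyte markers (right), 1 bar per array in the 4 groups, each axis starting at 0. The marker sums of mutant cut nerve (48864 to 57244) and control cut nerve (53241 to 55895) overlap, while Arg1 is lower on both mutant cut arrays than on both control cut arrays.

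Markers of other cells that could be in the segment gave the following readings. Of 8 neutrophil markers 3 were measured, and Mpo, Elane and Camp lay above the array median on 0 of 8 arrays. The summed level of the 3 was 469 to 606 in mutant cut nerve, 237 to 359 in mutant uncut nerve, 575 to 615 in control cut nerve and 374 to 1488 in control uncut nerve. The 1488 came from control uncut replicate 1, where S100a8 read 9.60 and S100a9 9.28. Csf3r, the receptor for granulocyte colony-stimulating factor, was higher in cut nerve by 1.43 in mutant and 1.66 in control mice. It exceeded the array median on 4 of 8 arrays, all of cut nerve, and entered the fit only through them, so no test is given. S100a8 and S100a9 were not called by limma after the cut. Of 8 hepatocyte markers 3 were measured, and Apoa1, Apoa2, Fgb and Tat lay above the median on no array. The summed level of the 3 was 3074 to 7608 in mutant cut nerve, 9542 to 15117 in mutant uncut nerve, 3517 to 6720 in control cut nerve and 10333 to 12121 in control uncut nerve. Most of it was Cyp2e1, a cytochrome that fat tissue also makes, at 11.46 to 12.84 in mutant cut, 13.17 to 13.85 in mutant uncut, 11.67 to 12.65 in control cut and 13.29 to 13.52 in control uncut nerve, while Alb and Ttr lay between 6.42 and 7.76 on all arrays. No eosinophil marker of 5 passed the filter. Skeletal muscle markers were higher in cut nerve, and fibroblast markers were split. Of 5 muscle markers 5 rose in mutant and 4 in control nerve (medians 1.31 and 1.19), against 18.1% and 22.8% of all genes, and without the 2 cut arrays named below 0 rose in mutant and 3 in control nerve. With 1 array left out at least 2 rose in mutant and at least 1 in control nerve. Their sums were 62774 to 90582 in mutant cut nerve, 21519 to 36981 in mutant uncut nerve, 59848 to 67573 in control cut nerve and 19868 to 33913 in control uncut nerve. Of 5 fibroblast markers 2 rose in each genotype, and Col1a1, a collagen chain, rose by 1.36 in mutant and 1.61 in control nerve. The other 3 were not called. Lum stood at 0.20 in mutant and 0.29 in control nerve, Dcn at -0.21 and -0.17, and Pdgfra at -0.36 and -0.16. The part of these cells in the Arg1 values was not tested.

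Milk protein and glandular epithelium genes (6 measured) summed to 2090 to 6050 in mutant cut nerve, 9419 to 16496 in mutant uncut nerve, 4060 to 8274 in control cut nerve and 413 to 429 in control uncut nerve. In uncut nerve they were thus higher in the genotype in which Arg1 was higher, and their part in that difference was not tested. Without the cut array richer in milk protein RNA of each genotype (mutant replicate 2 and control replicate 1), Arg1 differed by -1.37 between the cut nerves and by -2.05 in the difference of injury changes.

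The 8 genes with array values most like those of Arg1 came from the whole table. Likeness was the root mean square difference over the 8 arrays after each gene was centred on its own mean. Nearest of 12092 genes were Lgr6, a receptor for R-spondins, at 0.25, and Rgs16, a regulator of G protein signalling, at 0.27. Tmem132d, which codes for a transmembrane protein, and Nkd2, an inhibitor of Wnt signalling, stood at 0.29 each. They were followed by the acute phase protein Saa1 at 0.30, the surface protein Thy1 at 0.33, the membrane-bound protease Mmp17 at 0.33 and Jun itself at 0.36. None of the 8 belongs to the arginine, activation or macrophage lists used here.

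Jun read 10.39 and 10.80 in mutant cut nerve, 9.62 and 9.59 in mutant uncut nerve, 11.88 and 11.96 in control cut nerve, and 9.58 and 9.70 in control uncut nerve. Its difference between the cut nerves was -1.33, and -0.04 between the uncut nerves. Lgr6 differed between the cut nerves by -1.45 and Rgs16 by -1.48. All 8 genes had a positive injury difference in both genotypes, from 0.91 to 1.48 in mutant nerve and from 2.28 to 2.86 in control nerve. They were chosen for this likeness, so no test is given.

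**Figure D3:**
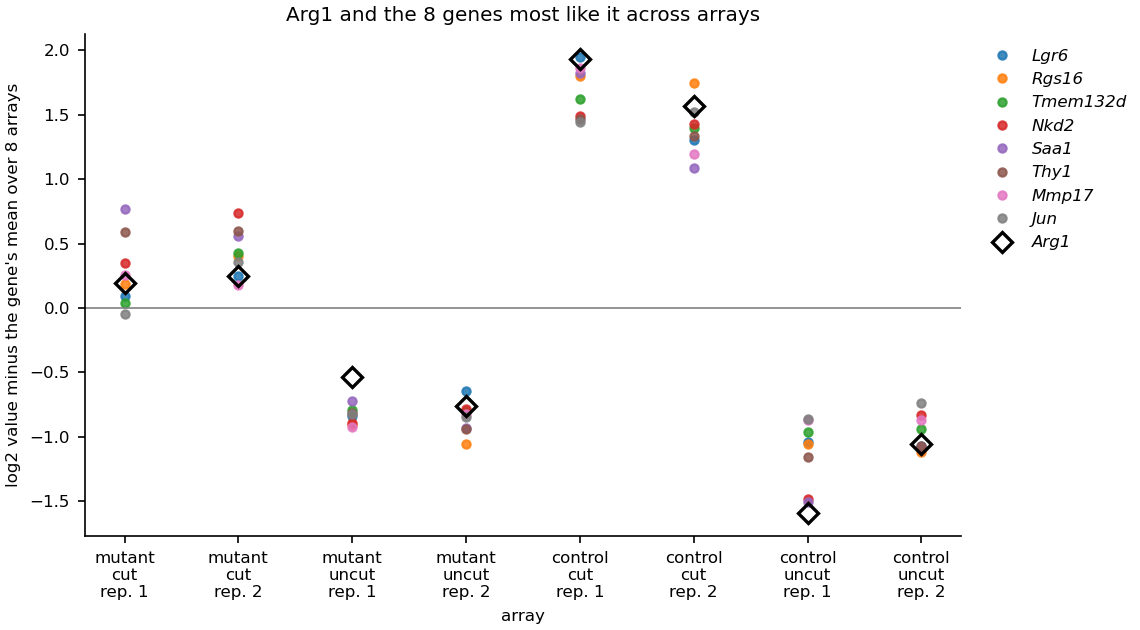
Log2 values minus each gene's own mean over 8 arrays (vertical axis) on each array (horizontal axis), for Arg1 as open diamonds and the 8 nearest genes as coloured points. All 9 genes are highest on both control cut arrays, near their mean or above it on both mutant cut arrays, and below it on the 4 uncut arrays.

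Of the other 8 members 5 passed the signal filter (Il4ra, Mrc1, Retnla, Cd163 and Odc1), each above the array median on all 8 arrays, and Arg2, Nos2 and Il10 lay above it on none. By limma with Benjamini-Hochberg adjustment over all genes, 2 of the 5 rose and 1 fell in mutant cut against mutant uncut nerve, where 36.0% of all genes were called, 18.1% higher and 17.8% lower. In control nerve 2 of the 5 rose and 1 fell, where 40.3% were called, 22.8% higher and 17.5% lower. With so many genes called, these counts say little about the members as a set. The median difference of the 5 was 0.16 in mutant and -0.40 in control nerve, and that of all genes 0.00 and 0.05.

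**Figure D4:**
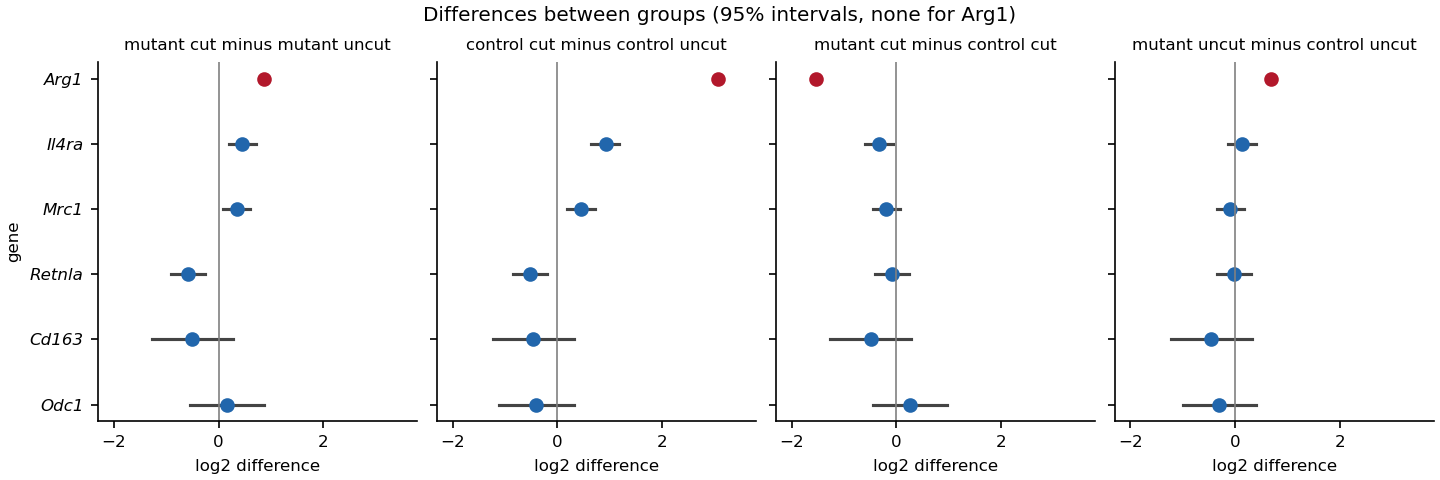
Log2 differences (horizontal axis) of the 6 members that passed the signal filter, with 95% intervals from the fit to all 8 arrays for the 5 genes other than Arg1, which is a point alone; panels from left to right compare mutant cut with mutant uncut, control cut with control uncut, mutant cut with control cut, and mutant uncut with control uncut nerve. Il4ra and Mrc1 lie right of 0 and Retnla left of it in both injury panels, and between the cut nerves the 5 genes lie between -0.49 and 0.26.

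Il4ra, the receptor chain through which interleukin 4 and interleukin 13 signal, rose in both genotypes. Its brightest probe set read 8.65 and 8.65 in mutant cut nerve, 8.11 and 8.29 in mutant uncut nerve, 9.07 and 8.90 in control cut nerve, and 7.99 and 8.15 in control uncut nerve. Cut and uncut arrays did not overlap in either genotype. The rise was 0.45 in mutant nerve (SE 0.11, limma adjusted p = 0.018), or 1.37-fold, and 0.92 in control nerve (SE 0.11, adjusted p = 0.00067), or 1.89-fold. The mutant call was lost without mutant cut replicate 1 (adjusted p = 0.064), mutant cut replicate 2 (adjusted p = 0.074) or mutant uncut replicate 1 (adjusted p = 0.096). The control call was kept with any array left out.

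Between the cut nerves Il4ra was lower on both mutant arrays, with a difference of -0.33 (interval -0.60 to -0.07). This did not pass over all genes (adjusted p = 0.40), nor did the difference of injury changes (-0.46, adjusted p = 0.62). A second probe set gave 7.82 and 7.91 in mutant cut nerve, 7.33 and 7.26 in mutant uncut nerve, 8.11 and 8.11 in control cut nerve, and 7.37 and 7.21 in control uncut nerve, a like order of groups. The other probe set, above the array median on 2 of 8 arrays and of the kind that may bind other transcripts, differed by -0.01 in mutant and 0.18 in control nerve after the cut and passed in neither (adjusted p = 0.97 and 0.31 in a fit of all 45037 probe sets). So the probe sets disagree on the size of the rise.

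Mrc1, the mannose receptor CD206 of tissue macrophages, read 10.57 and 10.55 in mutant cut nerve, 10.33 and 10.08 in mutant uncut nerve, 10.78 and 10.72 in control cut nerve, and 10.23 and 10.36 in control uncut nerve. Cut arrays lay above uncut arrays in both genotypes, and the control cut arrays were highest. It rose by 0.35 in mutant nerve (SE 0.11, limma adjusted p = 0.045) and by 0.45 in control nerve (SE 0.11, adjusted p = 0.015), or 1.37-fold. The mutant call was kept without mutant uncut replicate 1 and lost without any of the other 7 arrays, reaching 0.23 (adjusted p = 0.23) without mutant uncut replicate 2, and it was lost with no signal filter (adjusted p = 0.056) and with median centring (adjusted p = 0.050). In control nerve the call went when control cut replicate 1 was dropped (adjusted p = 0.068) and likewise with control uncut replicate 1 (adjusted p = 0.090). The median of the macrophage markers was 1.67 in mutant and 1.76 in control nerve.

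Retnla, a secreted protein that interleukin 4 raises in mouse macrophages and that fat tissue also makes, fell after the cut. It read 12.29 and 12.17 in mutant cut nerve, 12.93 and 12.71 in mutant uncut nerve, 12.31 and 12.31 in control cut nerve, and 12.66 and 13.01 in control uncut nerve. Every cut array lay below every uncut array. The difference was -0.58 in mutant nerve (SE 0.14, limma adjusted p = 0.015), to 0.667 of the uncut level, and -0.52 in control nerve (SE 0.14, adjusted p = 0.021), to 0.695 of it. The mutant call was lost without mutant cut replicate 2 (adjusted p = 0.082) or mutant uncut replicate 1 (adjusted p = 0.082). In control nerve the call went with either cut array dropped (adjusted p = 0.071 for replicate 1 and 0.076 for replicate 2) and with uncut replicate 2 dropped (adjusted p = 0.12).

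Adipocyte genes moved the same way as Retnla. Of 4 measured markers 2 fell in each genotype, against 17.8% of all genes called lower in mutant and 17.5% in control nerve. The summed level of the 4 was 6508 to 11409 in mutant cut nerve, 22727 to 25297 in mutant uncut nerve, 6600 to 11863 in control cut nerve and 20014 to 24225 in control uncut nerve. Adipoq, the fat cell hormone adiponectin, stood at -1.20 in mutant and -1.09 in control nerve. It was -1.02 in mutant nerve without mutant uncut replicate 1 and -0.77 in control nerve without control cut replicate 2, and its call was lost in both of these fits. The part of fat tissue in the Retnla values was not tested.

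The promoter windows of Retnla and Il4ra are shown because these members moved in opposite directions while both belong to the interleukin 4 pathway, whose factor is STAT6. RefSeq windows of 300 bases (250 before to 50 after the start site, GRCm38.p6) were found for 5 of the 9 members: Mrc1, Cd163, Il4ra, Odc1 and Retnla. The motifs searched on both strands were TTC and GAA with 4 bases between them, the spacing preferred by STAT6, and TGANTCA, the AP-1 motif that c-Jun dimers bind. Capitals mark every match, both windows run 5′ to 3′ on the plus strand, at chr16:48842359-48842658 for Retnla and chr7:125552021-125552320 for Il4ra.
Retnla: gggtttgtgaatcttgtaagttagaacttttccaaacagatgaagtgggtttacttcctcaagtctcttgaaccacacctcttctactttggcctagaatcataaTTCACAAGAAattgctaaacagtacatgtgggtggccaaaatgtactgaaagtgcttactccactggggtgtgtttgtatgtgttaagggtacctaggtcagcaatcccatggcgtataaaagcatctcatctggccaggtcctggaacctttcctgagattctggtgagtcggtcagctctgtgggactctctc
Il4ra: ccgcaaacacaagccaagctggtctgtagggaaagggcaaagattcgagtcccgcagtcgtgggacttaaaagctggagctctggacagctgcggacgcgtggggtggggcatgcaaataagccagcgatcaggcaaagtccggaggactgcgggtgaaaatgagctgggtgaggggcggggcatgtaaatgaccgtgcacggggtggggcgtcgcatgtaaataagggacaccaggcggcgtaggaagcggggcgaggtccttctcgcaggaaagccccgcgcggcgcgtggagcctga
Retnla held 1 match, TTCACAAGAA, starting at position -145 from the start site, and Il4ra none. The windows of Mrc1, Cd163 and Odc1 held 0 matches of either motif. Of all 32851 windows 6.95% held the STAT6 motif and 7.81% the AP-1 motif. A match is only a run of letters in this window.

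Cd163, a haemoglobin scavenger receptor of resident macrophages, did not pass in any comparison. It read 9.69 and 8.68 in mutant cut nerve, 10.07 and 9.31 in mutant uncut nerve, 9.70 and 9.66 in control cut nerve, and 10.14 and 10.15 in control uncut nerve. Mutant cut and mutant uncut arrays overlapped, with replicate 2 the lower in both, while control cut and control uncut arrays did not. The difference was -0.50 in mutant nerve (SE 0.33, limma adjusted p = 0.28) and -0.46 in control nerve (SE 0.33, adjusted p = 0.31), with intervals of -1.28 to 0.27 in mutant and -1.24 to 0.31 in control nerve. Leaving out mutant cut replicate 1 gave -1.01 in mutant nerve (adjusted p = 0.034), and a fit of only the 4 control arrays called the -0.46 (adjusted p = 0.017). The summed macrophage markers were higher in the same cut nerves, as given above.

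Odc1, which makes the polyamine putrescine from ornithine, had 3 probe sets, all above the median on 8 of 8 arrays. The brightest, of the kind that may bind other transcripts, read 10.81 and 11.49 in mutant cut nerve, 11.09 and 10.90 in mutant uncut nerve, 10.46 and 11.32 in control cut nerve, and 11.17 and 11.41 in control uncut nerve. Replicates of cut nerve lay further apart than the group means. Its difference was 0.16 in mutant nerve (interval -0.55 to 0.86, limma adjusted p = 0.72) and -0.40 in control nerve (interval -1.11 to 0.31, adjusted p = 0.33). The other 2 probe sets gave 0.19 and -0.11 in mutant nerve and 0.28 and -0.40 in control nerve, so they disagree in sign. Between the cut nerves the difference was 0.26 (interval -0.45 to 0.97, adjusted p = 0.94).

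Arg2, the mitochondrial arginase, was dim. Its brighter probe set read 4.79 and 5.28 in mutant cut nerve, 6.02 and 5.19 in mutant uncut nerve, 5.72 and 5.27 in control cut nerve, and 5.38 and 4.63 in control uncut nerve. The groups overlapped in all 4 comparisons. In a fit of all 45037 probe sets with no filter, where 17.2% were called after injury in mutant and 19.6% in control nerve, it differed by -0.57 in mutant nerve (adjusted p = 0.31) and by 0.48 in control nerve (adjusted p = 0.39). The second probe set lay between 3.22 and 4.08, below the 25th percentile on all 8 arrays.

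Nos2, which makes nitric oxide in macrophages under inflammatory signals, stayed below the array median on every array. It read 5.89 and 5.72 in mutant cut nerve, 6.25 and 6.15 in mutant uncut nerve, 6.12 and 6.02 in control cut nerve, and 6.00 and 5.90 in control uncut nerve. Mutant cut arrays lay below mutant uncut arrays and control cut arrays above control uncut arrays. In the unfiltered fit it fell in mutant nerve (log2 difference -0.40, SE 0.11, adjusted p = 0.043) and differed by 0.12 in control nerve (adjusted p = 0.56), while the difference of the 2 changes was -0.51 (adjusted p = 0.59), where 0.0511% of probe sets were called. Il10, an anti-inflammatory cytokine, lay between 3.56 and 3.95, below the 25th percentile on all 8 arrays, so no difference could be read (-0.07 in mutant and -0.04 in control nerve).

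Genotype moved none of the other members past the threshold. Of the 5 measured, limma called 0 between mutant cut and control cut nerve, where 1.09% of all genes were called (1 had an unadjusted p under 0.05), and 0 between mutant uncut and control uncut nerve, where 0% were called (0 had an unadjusted p under 0.05). In the difference of injury changes 0 were called, against 0.165% of all genes (1 had an unadjusted p under 0.05). Mrc1 stood at -0.19 between the cut nerves (interval -0.45 to 0.07), Retnla at -0.08 (interval -0.40 to 0.25) and Cd163 at -0.49 (interval -1.27 to 0.28).

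Some transporters and enzymes of arginine changed after injury. Of 8 measured genes of arginine uptake and the urea cycle other than Arg1, 2 rose and 2 fell in mutant nerve and 3 rose and 2 fell in control nerve (medians 0.00 and 0.17). Here and for the lists that follow, 18.1% of all genes were called higher and 17.8% lower in mutant nerve, and 22.8% higher and 17.5% lower in control nerve, so counts near these shares say nothing particular about a list. Slc7a2, an arginine transporter that macrophages use, read 9.25 and 9.04 in mutant cut nerve, 10.57 and 10.29 in mutant uncut nerve, 9.29 and 8.76 in control cut nerve, and 10.89 and 10.46 in control uncut nerve. It fell in both genotypes, with a difference of -1.28 in mutant (limma adjusted p = 0.0031) and -1.65 in control nerve (adjusted p = 0.00083). Gatm, which uses arginine to start creatine synthesis, fell, with -1.73 in mutant and -1.42 in control nerve. Slc7a7, part of a transporter that exports arginine, rose by 1.44 in mutant and 1.41 in control nerve, and Slc7a6, of the same exporter family, rose by 0.59 in mutant nerve and 0.48 in control nerve.

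In control nerve Gamt, the next enzyme of creatine synthesis, rose by 0.57, a call kept in 6 of 8 fits with 1 array left out. Ass1, Otc and Cps1, enzymes of the urea cycle, lay above the array median on 0 arrays.

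Of 10 measured genes of nitric oxide synthesis and its regulators 1 rose and 2 fell in each genotype (medians 0.00 in mutant and 0.14 in control nerve). Ddah1, which breaks down an inhibitor of nitric oxide synthases, read 9.28 and 9.04 in mutant cut nerve, 11.35 and 11.71 in mutant uncut nerve, 9.46 and 9.28 in control cut nerve, and 11.63 and 11.49 in control uncut nerve. It fell, with a difference of -2.36 in mutant nerve (SE 0.15, limma adjusted p = 3.5e-05) and -2.19 in control nerve (adjusted p = 4.0e-05). Nos3, the endothelial synthase, fell, with -0.75 in mutant and -0.53 in control nerve, and Gch1, which starts synthesis of the cofactor tetrahydrobiopterin, rose by 0.55 in mutant and 0.52 in control nerve. With 1 array left out the Nos3 call was kept in 5 of 8 fits in mutant and 1 of 8 in control nerve, where it stood at -0.26 (adjusted p = 0.19) without control cut replicate 2 and -0.80 (adjusted p = 0.0061) without control cut replicate 1. The Gch1 call was kept in 3 of 8 fits in mutant and 5 of 8 in control nerve, where it stood at 0.33 (adjusted p = 0.18) without control cut replicate 1.

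Polyamines are made from ornithine. Of 13 measured polyamine genes 1 rose and 1 fell in mutant nerve and 0 rose and 1 fell in control nerve (medians 0.16 and 0.06), where 36.0% of all genes were called in mutant and 40.3% in control nerve. Smox, spermine oxidase, fell, with -0.64 in mutant and -0.62 in control nerve, and Sat1, which acetylates polyamines for export, rose by 0.54 in mutant nerve, a call kept in 6 of 8 fits. In control nerve it stood at 0.36 (adjusted p = 0.054). Of 7 measured genes of proline synthesis and use 1 rose and 3 fell in each genotype. Aldh18a1, which makes the precursor of proline from glutamate, rose by 0.52 in mutant and 0.83 in control nerve. Prodh, which breaks proline down, fell, with -1.12 in mutant and -1.60 in control nerve. Aldh4a1, which acts later on the same route, fell, with -0.65 in mutant and -0.69 in control nerve, and P4ha1, a subunit of collagen prolyl hydroxylase, with -0.78 in mutant and -0.87 in control nerve. In mutant nerve the call of Aldh18a1 was kept in 4 of 8 fits (adjusted p = 0.13 without mutant cut replicate 2) and that of Prodh in 5 of 8 (adjusted p = 0.14 without it).

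Cytokines of the interleukin pathway were dim and several of its signalling genes changed. Of 14 measured genes of the IL-4, IL-13 and IL-10 pathway 4 rose and 2 fell in mutant nerve and 6 rose and 2 fell in control nerve (medians 0.22 and 0.28). Il4, Il13 and Il10 lay above the array median on 0 arrays. Socs3, a feedback inhibitor of cytokine signalling, read 10.35 and 10.09 in mutant cut nerve, 8.51 and 8.41 in mutant uncut nerve, 10.56 and 10.18 in control cut nerve, and 8.75 and 8.46 in control uncut nerve. It rose by 1.76 in mutant (limma adjusted p = 0.00021) and 1.77 in control nerve (adjusted p = 0.00017). Il10ra, the ligand-binding chain of the interleukin 10 receptor, rose by 1.16 in mutant and 1.07 in control nerve.

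Pparg, a nuclear receptor that supports alternative activation and is also the master factor of fat cells, fell, with -1.39 in mutant and -1.05 in control nerve. Irf4, a factor downstream of interleukin 4, fell, with -0.97 in mutant nerve (call kept in 6 of 8 fits, and -0.64 without mutant uncut replicate 1) and -0.92 in control nerve (5 of 8). These falls stand beside those of the adipocyte markers given above, and the part of fat tissue in them was not tested.

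Alternative activation markers were called in both directions, as were all genes. Of 20 measured other than Arg1, with Mrc1, Retnla and Cd163 among them, 5 rose and 4 fell in mutant nerve and 7 rose and 4 fell in control nerve (medians 0.03 and 0.20), against 18.1% higher and 17.8% lower of all genes in mutant and 22.8% and 17.5% in control nerve. The count that fell in mutant nerve was 7 with mutant cut replicate 1 dropped and 2 with replicate 2 dropped, and in control nerve 2 without either cut array or uncut replicate 2. Clec7a, the receptor dectin-1, read 11.33 and 11.43 in mutant cut nerve, 7.90 and 8.25 in mutant uncut nerve, 11.62 and 11.44 in control cut nerve, and 7.81 and 8.37 in control uncut nerve. It rose by 3.30 in mutant nerve (limma adjusted p = 2.7e-05) and 3.44 in control nerve (adjusted p = 1.9e-05). The scavenger receptors Msr1 and Stab1 rose by 2.62 and 1.57 in mutant nerve, and by 2.50 and 1.63 in control nerve. Egr2 fell, with -2.36 in mutant and -2.76 in control nerve. It is on the list as a macrophage gene and is better known in nerve as the factor that drives myelin genes.

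Chil3, a secreted chitinase-like protein of alternatively activated macrophages, was higher in cut nerve of both genotypes. In the main fit it stood at 1.65 in mutant nerve (limma adjusted p = 0.15) and passed in control nerve, with an unstable call. Which genotype passed changed with the arrays left out, so these calls mark no difference between genotypes. It read 6.64 and 6.23 in mutant cut nerve, 5.18 and 4.39 in mutant uncut nerve, 10.02 and 7.08 in control cut nerve, and 6.43 and 5.80 in control uncut nerve. Control cut replicate 1 was the highest. No uncut array exceeded the array medians (6.59 to 6.65), so Chil3 entered the fit only through cut nerve, where it is higher. Its injury p-values are therefore no independent support for a rise. The rise in control nerve was 2.44 (SE 0.81, limma adjusted p = 0.046), a call kept in 1 of 8 fits that each drop 1 array. Without control cut replicate 1 the rise was 0.96 (adjusted p = 0.10), and without control cut replicate 2 it was 3.91 (adjusted p = 0.00078). Between the cut nerves Chil3 differed by -2.12 (limma adjusted p = 0.49), by -0.65 without control cut replicate 1 and by -3.59 without control cut replicate 2. The difference of injury changes was -0.79, and 0.68 without control cut replicate 1.

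Classical activation markers were mostly dim: 10 of 25 were measured, and Il6, Il12b, Ptgs2 and Acod1 were above the array median on no array. Of the 10, 4 rose and 1 fell in mutant nerve and 7 rose and 1 fell in control nerve (medians 0.25 and 0.50). Fcgr1, a high-affinity receptor for IgG, rose by 2.43 in mutant and 2.49 in control nerve. Cxcl10, an interferon-induced chemokine, rose by 1.71 in mutant and 1.33 in control nerve, and the interferon regulatory factor Irf5 by 0.92 in mutant and 0.87 in control nerve. Cxcl11, another such chemokine, fell, with -0.70 in mutant and -0.97 in control nerve. Without the 2 cut arrays richer in milk protein RNA 3 rose and 0 fell in mutant nerve and 4 rose and 1 fell in control nerve. The count that rose in control nerve was also 4 without control cut replicate 1 or control uncut replicate 1, and none fell in mutant nerve without mutant cut replicate 2 or mutant uncut replicate 2.

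**Figure D5:**
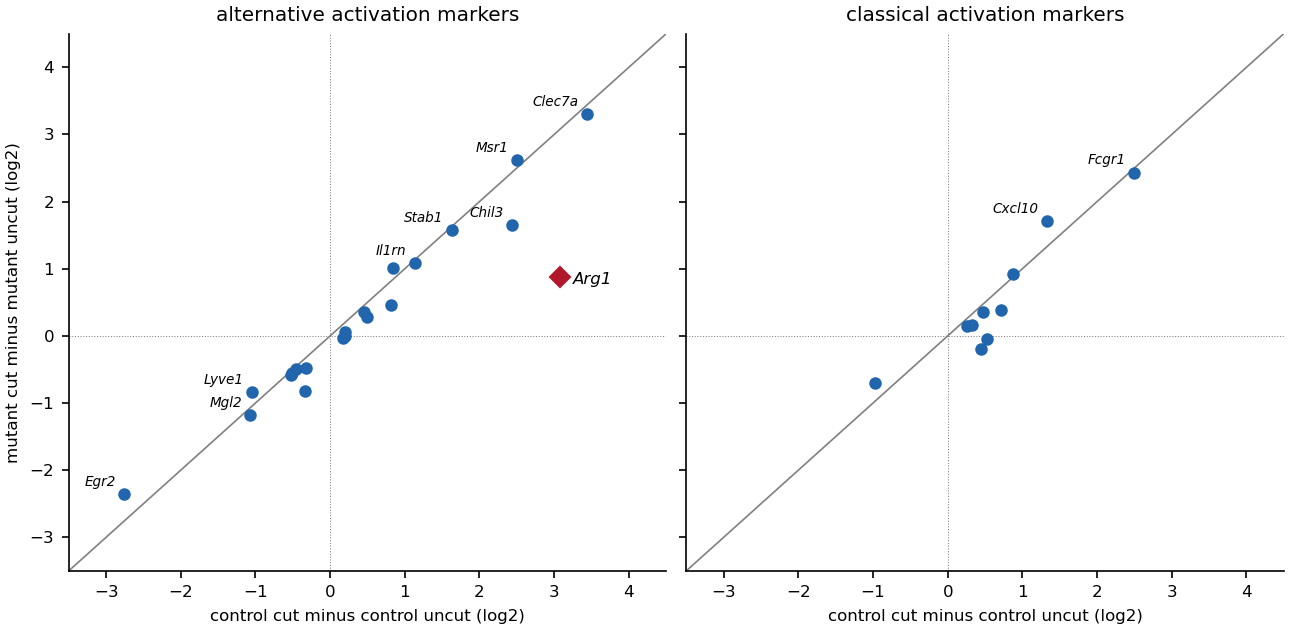
Injury differences of the measured alternative (left) and classical (right) activation markers, in control nerve on the horizontal axis and in mutant nerve on the vertical axis, both log2 of cut minus uncut; the diagonal marks equal values and genes past 1 in control nerve are named. Most points lie near the diagonal, such as Clec7a at 3.30 in mutant and 3.44 in control nerve, while Arg1 (diamond) lies below it at 0.87 in mutant and 3.08 in control nerve.

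Across the 7 lists, 82 genes other than Arg1 were measured. Limma called 33 after injury in mutant nerve, where 36.0% of all genes were called, and 40 in control nerve, where 40.3% were. Between mutant cut and control cut nerve it called 0 of the 82 (8 had an unadjusted p under 0.05, and the lowest adjusted p was 0.34, for Cxcl10 at 0.46). Between mutant uncut and control uncut nerve it called 0 (3 with an unadjusted p under 0.05), and in the difference of injury changes 0 (4 with an unadjusted p under 0.05, lowest adjusted p = 0.52). The shares of all genes called in these 3 were 1.09%, 0% and 0.165%.

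For the arrays as a whole, Jun was lower on both mutant cut arrays than on both control cut arrays, as given above. Whether its probe set covers the deleted stretch was not given in the sources used here. Of 5 measured Schwann cell markers all 5 lay above the array median on 8 of 8 arrays, and 3 fell after the cut in each genotype, against 17.8% of all genes lower in mutant and 17.5% in control nerve. Erbb3, a neuregulin receptor, rose by 0.59 in mutant nerve (limma adjusted p = 0.028) and stood at 0.25 in control nerve (adjusted p = 0.27). Its mutant call depended on single arrays, and the difference was 0.41 without mutant uncut replicate 1, where the call was lost. Between the cut nerves Mbp, a myelin protein, was higher in mutant nerve by 0.99 (limma adjusted p = 0.021). This call depended on single arrays, and the difference was 0.84 without mutant cut replicate 1, where the call was lost. The other 4 were not called, with Pmp22 at 0.52, Erbb3 at 0.20, S100b at -0.29 and Sox10 at -0.20. The sums of the 5, in which the bright myelin genes Mbp and Pmp22 weigh most, did not overlap. They were 18966 to 22304 in mutant and 14988 to 15351 in control cut nerve, so they do not speak for the list as a whole. Mbp thus moved with the genotype in which Arg1 was lower, and its part in the Arg1 values was not tested. Csn2, a milk protein, read 3.69 and 9.15 in mutant cut nerve, 13.01 and 10.33 in mutant uncut nerve, 11.47 and 7.03 in control cut nerve, and 3.50 and 4.14 in control uncut nerve.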

How the data were processed

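RNA of 8 pooled samples of mouse sciatic nerve was hybridised to 1-colour Affymetrix arrays. The authors deposited a log2 value for each probe set on each array, which RMA in the package affy gave, per the submitters' processing notes. RMA corrects background, equalises arrays and summarises probes. No versions, scan dates or detection calls were found in the sources used here, so batches were not tested. The number of arrays limits the precision.

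Symbols came from the platform annotation (34958 probe sets with 1 symbol, 932 with several, 9211 with none). Of those with 1 symbol 34754 matched a current gene table. A probe set was kept if above its array's median on at least 2 arrays (24162 kept, 64 control probe sets left out), and the kept probe set of highest mean stood for its gene, which left 12093 of 18193 genes. With R 4.3.3 and limma 3.58.1 group means were fitted on all 8 arrays (4 residual and 3.59 prior degrees of freedom). Calls are at Benjamini-Hochberg adjusted p under 0.05, two-sided, over all genes. Arg1, Chil3, Csf3r and Itgam passed the signal filter through cut arrays only. The model was tested on simulated data.

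Genes named are the 9 members, up to 4 called genes of highest change per list and comparison and the 8 genes most like Arg1. Cell markers and dim genes given as readings were named after their values were seen. The members and lists were chosen with earlier results of these data known. Alternatives were other filters, other probe set rules, 2 further normalizations, another variance model, a replicate block, fits of the 4 arrays under comparison alone, and leaving out each array. A fit that drops the 2 cut arrays richest in milk protein RNA was chosen after seeing the data. Promoter windows are from RefSeq.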

Additional observations from a re-analysis of the deposited data

Results flagged for a closer look

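The change of Arg1 after injury differed between mutant and control nerve. It was 0.87 in mutant and 3.08 in control nerve, a difference of -2.21. As Arg1 was chosen with these values known, this is a description and no test.

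Nos2 drew attention because its cut arrays lay below its uncut arrays in mutant nerve and above them in control nerve, with no overlap in either. The nearest control arrays read 6.02 in cut and 6.00 in uncut nerve. With 2 arrays a group such a separation says little, and the share of all probe sets that show it is not given here. Its injury change in mutant nerve minus that in control nerve was -0.51. In a fit of all probe sets this did not pass (limma adjusted p = 0.59), and all 8 values lay below the median of their array.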

How the results depend on the processing

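Arg1 kept its direction in all 5 comparisons under every alternative that tested it. With 1 array left out it ranged from 0.76 to 0.99 for injury in mutant nerve, 2.81 to 3.35 in control nerve, -1.71 to -1.35 between the cut nerves, 0.41 to 0.95 between the uncut nerves and -2.48 to -1.94 for the difference of injury changes. A filter on the mean over all arrays did not test it, and a fit of only the 4 arrays compared was not run for the difference of injury changes. Of 445 alternative values of the other 5 members, 395 kept direction and call, 26 lost a call, 2 gained one and 22 turned sign. Most of these results were not called in the main fit and had no call to lose. All lost calls were among the injury changes of Mrc1 and Retnla and that of Il4ra in mutant nerve, most often Mrc1 in mutant nerve.

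Genes called for injury in mutant nerve (4348) were 7242 with probe sets as units, 2782 without the 2 cut arrays richer in milk protein RNA and 2734 to 4260 with 1 array left out. For injury in control nerve (4877) they were 8436 with probe sets as units and 3388 to 4715 with 1 array left out. Between the cut nerves (132) they were 31 from only those 4 arrays, 55 without the 2 arrays and 13 to 111 with 1 left out. Between the uncut nerves (0) they were 1 when probe sets of a gene were averaged or tested singly, 4 with the replicate block, 9 from only those 4 arrays, 9 without the 2 arrays and 0 to 2 with 1 left out. For the difference of injury changes (20) they were 33 with no filter or with the mean of probe sets, 12 with a filter on the mean, 31 with a trended and robust variance and 0 to 45 with 1 left out.

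Of the other members, 3 were called in mutant nerve, against 0 without the 2 arrays and 0 to 2 with 1 left out. In control nerve 3 were called, against 1 without the 2 arrays and 1 to 3 with 1 left out. The lowest of these rest on the arrays named beside each gene in the results.

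Signs turned as follows. Without the 2 arrays, Odc1 was -0.18 for injury in mutant nerve, 0.03 in control nerve, -0.51 between the cut nerves and -0.21 for the difference of injury changes. Cd163 was then 0.03 between the cut nerves and 0.48 for the difference, and Retnla 0.00 for the difference. With the mean of its probe sets Il4ra was -0.01 between the uncut nerves. With 1 array left out, Odc1 ranged from -0.18 to 0.49 for injury in mutant nerve, -0.83 to 0.03 in control nerve and -0.17 to 0.69 between the cut nerves, where Cd163 ranged from -1.0 to 0.01. Between the uncut nerves Mrc1 ranged from -0.21 to 0.04 and Retnla from -0.19 to 0.16. For the difference of injury changes Mrc1 ranged from -0.23 to 0.02, Retnla from -0.24 to 0.12 and Cd163 from -0.54 to 0.46. None of these was a called value, and the cause was not tested.

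Cut and contralateral nerves came from operated mice, but no source says that equal replicate numbers mark the same mice, and there are only 2 pairs, so whether the numbers pair the arrays is not settled and p-values treat the arrays as independent. Deviations of same-numbered arrays correlated at 0.023 to 0.34 over all pairs of groups, at 0.153 between mutant cut and mutant uncut and at 0.179 between control cut and control uncut nerve. With the number as a replicate block 4979 genes were called for injury in mutant nerve, 5543 in control nerve, 174 between the cut nerves and 25 for the difference of injury changes, and the members' counts were 3, 3, 0 and 0. Signal near background limits Arg1, Arg2, Nos2 and Il10.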
